A study of Rattus norvegicus with 6 samples.

Results

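The genes described here encode the catalytic and regulatory subunits of phosphoinositide 3-kinase (PI3K), the lipid kinase family that adds a phosphate to the inositol ring of membrane phosphoinositides. The members were Pik3ca, Pik3cb, Pik3cd, Pik3r1, Pik3r2, Pik3r3, Pik3c2a, Pik3c2b, Pik3c3 and Pik3r4, each matched by its exact symbol, and all 10 were found among 20653 genes in the count and FPKM tables. Transcripts were measured by RNA sequencing in 3 libraries of cells labelled NPS-EMSC and 3 libraries of cells labelled EMSC. Both groups were rat mesenchymal stem cells from nasal mucosa, given as primary cell lines of genotype SD, and the series title describes the cells as made to overexpress neuropeptide S. The labels name no vector, promoter, clone or selection step and no control vector for EMSC, so gene delivery and neuropeptide S itself cannot be told apart. They also do not say whether the libraries of a group came from separate cultures, so p-values measure only the spread between these libraries, which may be technical.

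Class IA enzymes pair a catalytic subunit (p110α from Pik3ca, p110β from Pik3cb or p110δ from Pik3cd) with a regulatory subunit (p85α and its shorter isoforms from Pik3r1, p85β from Pik3r2 or p55γ from Pik3r3). The regulatory subunit stabilises the catalytic one, restrains it at rest and recruits it to phosphorylated tyrosines of receptors and adaptors, where the enzyme makes PIP3, the lipid that draws AKT to the membrane. Class II enzymes (Pik3c2a, Pik3c2b) act without such a regulatory partner, in endocytosis and membrane traffic. The class III enzyme Vps34, encoded by Pik3c3, is anchored by its partner Vps15, encoded by Pik3r4, and makes PI3P on endosomes and at sites of autophagosome formation. PI3K/AKT/GSK3β signalling is the pathway named in the series title, and the comparison asks whether the transcripts of its lipid kinase, and the balance between its subunits, differed between the groups. Transcript levels do not measure the amount or activity of the proteins.

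Counted reads per library came to 39082245 to 39511976 in NPS-EMSC and 39314098 to 40261205 in EMSC. Nps, the targeted gene, was counted 93566, 77014 and 85916 times in NPS-EMSC, against 0, 0 and 10 times in EMSC, so the libraries followed their labels. Mesenchymal markers (9 genes, among them Thy1, Nt5e and Col1a1) summed to 16221 to 17080 CPM in NPS-EMSC and 15405 to 16775 CPM in EMSC, where CPM is reads per 1000000 counted reads after scaling of the library totals. These sums hide changes of single genes. In the test described below, 7 of the 9 were higher and 2 lower, beside 29.7% higher and 29.5% lower over all genes tested. Nt5e was 4.45-fold and Thy1 2.92-fold higher in NPS-EMSC, and Pdgfra was 1.93-fold and Col1a1 1.21-fold lower. Smooth muscle markers summed to 3528 to 3739 CPM in NPS-EMSC and 784 to 908 CPM in EMSC. Leukocyte markers summed to 9.86 to 12.3 CPM in NPS-EMSC and 61.4 to 74.6 CPM in EMSC, epithelial markers to 10.1 to 13.2 and 4.18 to 4.93 CPM, endothelial markers to 1.72 to 2.46 and 1.99 to 2.71 CPM, and Schwann and neural markers to 39.0 to 47.7 and 80.0 to 95.0 CPM, NPS-EMSC first in each pair. In bulk libraries, fewer cells of a type and less RNA per cell cannot be told apart.

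All 10 genes passed the filter on low counts. At an adjusted p under 0.05 (edgeR's quasi-likelihood test, Benjamini-Hochberg adjustment over 14505 genes), 4 of the 10 rose in NPS-EMSC, 2 fell and 4 did not pass. The background share over the whole table was 59.3%, made up of 29.7% higher and 29.5% lower, so 6 of 10 is close to the background share. The median log2 fold change of the 10 genes was 0.07, and their median absolute value was 0.24, against 0.34 over all genes tested. The direction differed by role: Pik3r1 and Pik3r2, the class IA regulatory genes that passed, were lower, and Pik3cb and Pik3cd, the catalytic genes that passed, were higher.

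**Figure D1:**
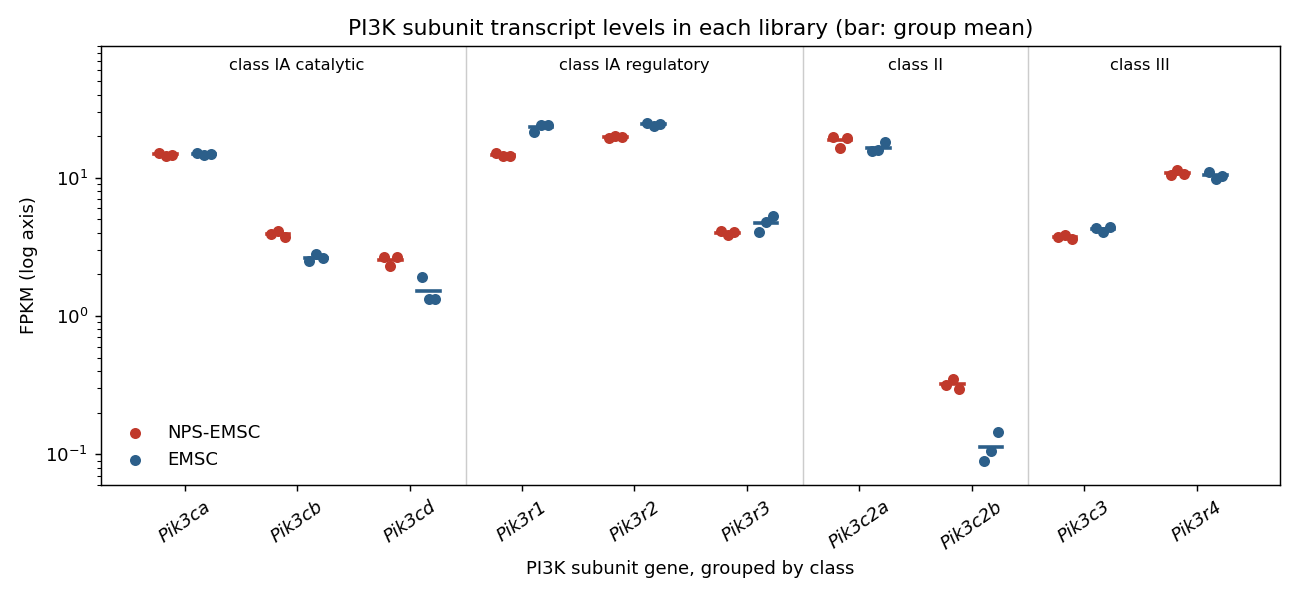
FPKM of each of the 10 genes in each library on a log axis, with NPS-EMSC points left of EMSC points and a bar at each group mean. Pik3r1 and Pik3r2 lie lower in NPS-EMSC, Pik3cb, Pik3cd and Pik3c2b lie higher, and the Pik3ca points overlap.

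Pik3ca, the gene of p110α, which serves receptor tyrosine kinases, was the main class IA catalytic transcript in all 6 libraries. FPKM, reads per kilobase of gene per 1000000 counted reads, allows levels of different genes to be set side by side. Pik3ca had 15.2, 14.5 and 14.7 FPKM in NPS-EMSC, against 15.1, 14.5 and 14.9 FPKM in EMSC. The groups overlapped, and the log2 fold change was 0.04 (unadjusted 95% interval -0.06 to 0.14, edgeR adjusted p = 0.507). It was counted 3745 to 4011 times in each library.

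Pik3cb encodes p110β, which responds to G protein-coupled receptors as well as receptor tyrosine kinases. It had 3.91, 4.16 and 3.73 FPKM in NPS-EMSC, against 2.49, 2.79 and 2.65 FPKM in EMSC. Every NPS-EMSC library was above every EMSC library. The gene rose 1.53-fold (log2 fold change 0.61, SE 0.10, edgeR adjusted p = 5.33e-06).

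Pik3cd encodes p110δ, best known from leukocytes. Its levels were 2.68, 2.31 and 2.68 FPKM in NPS-EMSC, against 1.92, 1.34 and 1.32 FPKM in EMSC. The groups did not overlap, although EMSC replicate 1 stood well above the other two EMSC libraries. Pik3cd rose 1.73-fold (log2 fold change 0.79, SE 0.13, edgeR adjusted p = 1.56e-05). Of 9 leukocyte markers tested, 8 fell and 1 rose, beside 29.5% lower and 29.7% higher over all genes tested. Ptprc, the pan-leukocyte surface phosphatase CD45, had 0, 1 and 0 reads in NPS-EMSC and 33, 20 and 41 reads in EMSC. Pik3cd had 530 to 621 reads in each NPS-EMSC library, and which cells they came from was not tested.

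Among the regulatory genes, Pik3r1 changed most. It had 15.1, 14.4 and 14.5 FPKM in NPS-EMSC, against 21.4, 24.0 and 24.0 FPKM in EMSC. The groups lay far apart relative to their spread, with 149, 141 and 142 CPM in NPS-EMSC and 202, 232 and 230 CPM in EMSC. Pik3r1 fell, with a log2 fold change of -0.62 (SE 0.05, edgeR adjusted p = 1.56e-10), which is 1.53-fold lower. Reads were counted per gene, so p85α, p55α and p50α, which are made from separate start sites of this gene, cannot be told apart.

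Pik3r2, the p85β gene, had 19.4, 20.0 and 19.6 FPKM in NPS-EMSC, against 24.9, 23.9 and 24.7 FPKM in EMSC. The groups did not overlap. Pik3r2 fell by 0.27 on the log2 scale (SE 0.05, edgeR adjusted p = 6.31e-05).

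Pik3r3, the p55γ gene, had 4.10, 3.87 and 4.09 FPKM in NPS-EMSC, against 4.03, 4.81 and 5.32 FPKM in EMSC. EMSC replicate 1 lay within the NPS-EMSC range, so the groups overlapped. The log2 fold change was -0.19 (unadjusted 95% interval -0.38 to 0.01, edgeR adjusted p = 0.0898). Without EMSC replicate 1 it was -0.30, with edgeR adjusted p = 0.00659.

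**Figure D2:**
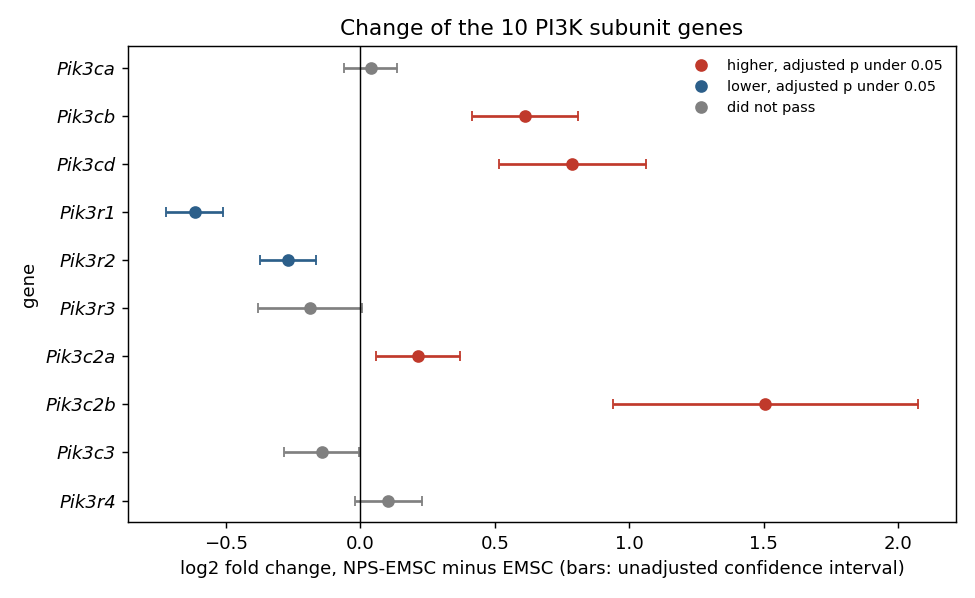
Log2 fold change of each gene, NPS-EMSC minus EMSC, with its unadjusted 95% interval, coloured by whether it passed at adjusted p under 0.05. The class IA catalytic genes lie at or above 0 and the class IA regulatory genes below it, with Pik3c2b farthest to the right at 1.51.

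The start regions of Pik3r1 and Pik3r2, the regulatory genes that fell together, are shown with that of Pik3c2a, a gene that rose. RefSeq windows of rat assembly GRCr8, running from 250 bases before to 50 bases after 1 annotated start per gene, were matched for 8 of the 10 genes. Each is printed 5′ to 3′ on the strand of the gene. Capitals mark matches, on either strand, to the GC box GGGCGG or the CCAAT box CCAAT, and no matches overlap each other.
Pik3r1, chr2:34697611-34697910, minus strand: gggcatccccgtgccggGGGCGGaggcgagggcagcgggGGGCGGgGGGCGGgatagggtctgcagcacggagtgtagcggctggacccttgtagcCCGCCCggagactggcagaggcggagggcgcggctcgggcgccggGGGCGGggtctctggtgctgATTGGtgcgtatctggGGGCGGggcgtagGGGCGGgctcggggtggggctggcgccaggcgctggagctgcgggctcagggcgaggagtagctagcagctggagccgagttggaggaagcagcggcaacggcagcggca
Pik3r2, chr16:18699247-18699546, plus strand: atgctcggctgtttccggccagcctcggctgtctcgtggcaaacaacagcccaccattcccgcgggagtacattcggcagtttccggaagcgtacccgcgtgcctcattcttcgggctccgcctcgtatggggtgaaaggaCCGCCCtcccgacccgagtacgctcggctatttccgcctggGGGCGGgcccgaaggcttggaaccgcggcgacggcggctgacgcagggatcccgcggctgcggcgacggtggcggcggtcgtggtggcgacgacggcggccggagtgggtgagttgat
Pik3c2a, chr1:180117724-180118023, minus strand: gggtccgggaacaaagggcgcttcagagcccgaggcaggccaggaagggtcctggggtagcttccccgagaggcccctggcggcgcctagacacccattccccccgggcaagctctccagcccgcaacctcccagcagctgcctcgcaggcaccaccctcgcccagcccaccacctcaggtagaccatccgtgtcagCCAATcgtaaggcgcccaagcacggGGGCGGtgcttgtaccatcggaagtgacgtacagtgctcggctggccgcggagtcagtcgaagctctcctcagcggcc

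Pik3r1 held 7 GC box matches, Pik3r2 held 2 and Pik3c2a held 1, while 33.1% of the 33469 windows in the table held at least 1. A CCAAT match was found once each in the Pik3r1 and Pik3c2a windows and in 37.5% of all windows. G and C made up 75.3% of the Pik3r1 window, 68.7% of the Pik3r2 window and 68.0% of the Pik3c2a window, against a median of 51.7% over all windows. None of these 3 windows held the forkhead motif TGTTTAC (3.78% of all windows), the E-box CACGTG (6.42%), the cyclic AMP response element TGACGTCA (1.83%) or the AP-1 motif TGANTCA (7.33%), searched on both strands. These matches describe letters only. Of the genes that did not pass, Pik3c3 held 2 GC box matches, and Pik3ca, Pik3r3 and Pik3r4 held 0 each. No contrast between genes that fell and genes that rose is drawn from these counts. The Pik3cd window, of a gene that rose, held 0 GC box matches and 51.7% G and C. It may not hold a start, so no comparison among genes that rose is drawn from it. The annotated starts behind the Pik3ca and Pik3cd windows may lie at internal exons, and neither window is printed.

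In class IA the regulatory sum was lower in NPS-EMSC and the catalytic sum was higher. Summed over Pik3r1, Pik3r2 and Pik3r3, regulatory transcripts came to 38.6, 38.3 and 38.2 FPKM in NPS-EMSC, against 50.3, 52.7 and 54.0 FPKM in EMSC. Catalytic transcripts of Pik3ca, Pik3cb and Pik3cd summed to 21.7, 20.9 and 21.1 FPKM in NPS-EMSC, against 19.5, 18.7 and 18.8 FPKM in EMSC. Regulatory transcripts were thus in excess in all 6 libraries, by a ratio of 1.80 ± 0.0272 in NPS-EMSC and 2.76 ± 0.155 in EMSC (SD, n = 3 each). The ratios were 1.78, 1.83 and 1.81 in the NPS-EMSC libraries and 2.58, 2.83 and 2.87 in the EMSC libraries, with no overlap. The difference was -0.95 (two-sided exact permutation test, p = 0.1).

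That p is the smallest that 3 libraries against 3 can give, and the balance was therefore tested with no power to pass 0.05. Of 16 shares and ratios computed, 15 did not overlap between the groups and each of these gave an exact permutation p = 0.1, or 0.107 after Benjamini-Hochberg adjustment over the 16. They are built from the same 10 genes and are not independent of each other or of the single-gene tests. For comparison, the FPKM ranges of the groups did not overlap for 6 of the 10 genes and for 64.4% of all genes tested.

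Among the catalytic genes, Pik3ca held a smaller share in NPS-EMSC, and Pik3cb and Pik3cd larger ones. Pik3ca made up 69.7%, 69.1% and 69.6% of catalytic transcripts in NPS-EMSC, against 77.4%, 77.9% and 78.9% in EMSC. The share of Pik3cb was 18.5% ± 1.18 in NPS-EMSC and 13.9% ± 1.09 in EMSC, and that of Pik3cd was 12.0% ± 0.865 in NPS-EMSC and 8.01% ± 1.59 in EMSC (SD, n = 3 each). Since the level of Pik3ca itself overlapped between the groups, its smaller share stood beside higher levels of the other two genes. The ratio of Pik3ca to Pik3cb was 3.76 ± 0.249 in NPS-EMSC and 5.62 ± 0.420 in EMSC. Pik3cd remained the least abundant of the 3 catalytic genes in both groups.

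**Figure D3:**
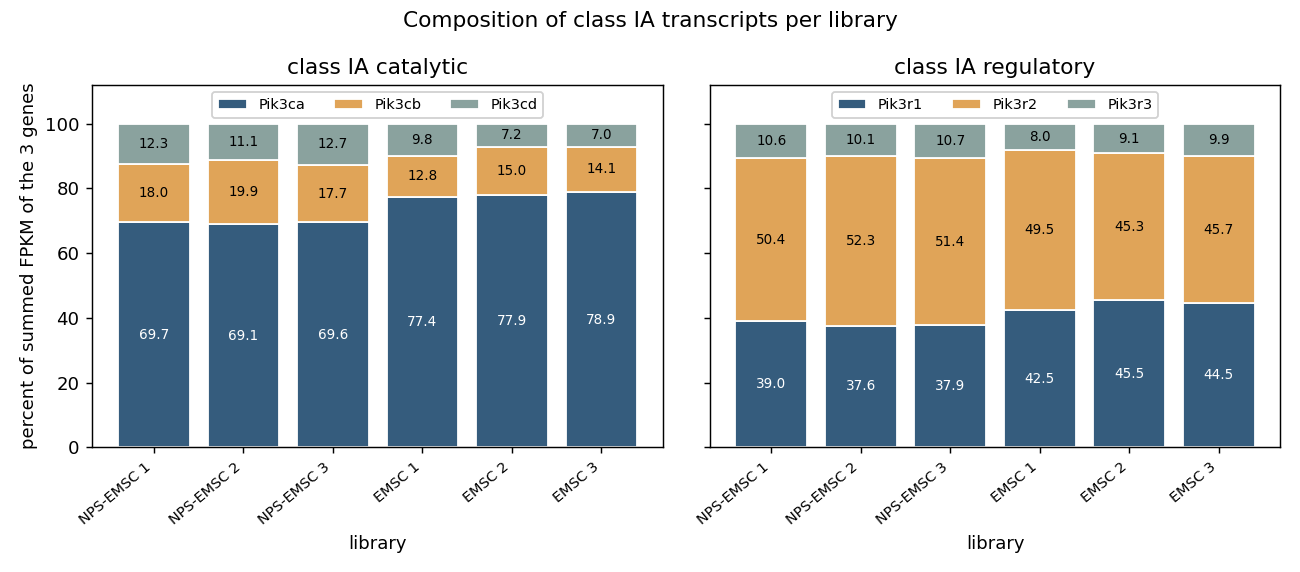
Percent of the summed class IA catalytic FPKM (left) and regulatory FPKM (right) held by each gene, with 1 bar per library and the NPS-EMSC libraries left of the EMSC libraries. Pik3ca holds 69.1% to 69.7% of catalytic transcripts in NPS-EMSC and 77.4% to 78.9% in EMSC, and Pik3r1 holds 37.6% to 39.0% of regulatory transcripts in NPS-EMSC and 42.5% to 45.5% in EMSC.

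Among the regulatory genes, Pik3r1 held a smaller share in NPS-EMSC and Pik3r2 a larger one. In NPS-EMSC, Pik3r1 made up 39.0%, 37.6% and 37.9% of regulatory transcripts, against 42.5%, 45.5% and 44.5% in EMSC. Pik3r2 made up 51.4% ± 0.958 in NPS-EMSC and 46.8% ± 2.34 in EMSC, and Pik3r3 made up 10.5% ± 0.327 and 8.99% ± 0.931 in NPS-EMSC and EMSC (SD, n = 3 each). Per length, Pik3r1 and Pik3r2 transcripts were close to even in EMSC, whereas Pik3r2 led in NPS-EMSC. The ratio of Pik3r1 to Pik3r2 was 0.744 ± 0.0281 in NPS-EMSC and 0.945 ± 0.0779 in EMSC (SD, n = 3 each), without overlap (two-sided exact permutation test, p = 0.1). This ratio depends on the gene lengths behind the FPKM values, 9710 bases for Pik3r1 and 3170 for Pik3r2, whereas its change between the groups has the same sign without them.

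Set against the main catalytic gene, Pik3r1 was nearly level with Pik3ca per length in NPS-EMSC, at ratios of 0.994, 0.996 and 0.984, against 1.42, 1.65 and 1.62 in EMSC. This level depends on the gene lengths behind the FPKM values, 9710 bases for Pik3r1 and 6628 for Pik3ca. In reads, Pik3r1 had 5723, 5466 and 5545 and Pik3ca 3931, 3745 and 3845 in NPS-EMSC. The NPS-EMSC ratios spanned only 0.0119, while EMSC replicate 1 had the lowest ratio of the EMSC libraries by a clear margin. The same library had the lowest Pik3r1 and Pik3r3 levels and the highest Pik3cd level of its group. Without it, the difference in the regulatory to catalytic ratio was -1.04, and without any other single library it was -0.97 to -0.90.

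**Figure D4:**
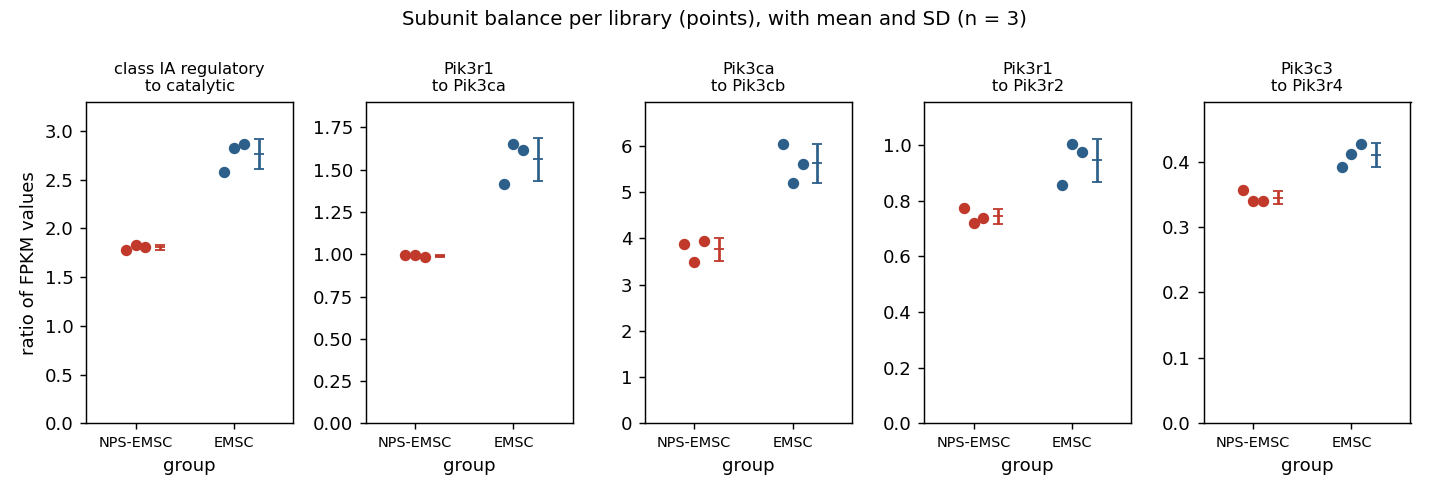
Ratios of FPKM values per library for 5 subunit pairs, NPS-EMSC left of EMSC, with mean and SD beside the points (n = 3). In each panel the NPS-EMSC points lie below the EMSC points, for example 1.78 to 1.83 against 2.58 to 2.87 for regulatory over catalytic transcripts.

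The class II genes stood far apart from each other in level in both groups. Pik3c2a, whose product PI3K-C2α works with clathrin in endocytosis, had 19.8, 16.5 and 19.6 FPKM in NPS-EMSC, against 15.7, 15.9 and 18.1 FPKM in EMSC. NPS-EMSC replicate 2 lay inside the EMSC range, so the groups overlapped. Pik3c2a rose by 0.21 on the log2 scale (SE 0.07, edgeR adjusted p = 0.0211). Its call was lost without EMSC replicate 1 (adjusted p = 0.101), EMSC replicate 2 (0.104), NPS-EMSC replicate 1 (0.0722) or NPS-EMSC replicate 3 (0.0727), all by edgeR.

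Pik3c2b, the other ubiquitous class II gene, was the lowest of the 10, at 0.317, 0.353 and 0.298 FPKM in NPS-EMSC, against 0.0898, 0.105 and 0.146 FPKM in EMSC. These values rest on 117, 130 and 111 reads in NPS-EMSC and 34, 40 and 54 reads in EMSC. The gene rose 2.84-fold (log2 fold change 1.51, SE 0.28, edgeR adjusted p = 4.37e-05), the largest fold change of the 10. In GRCr8 its span overlaps that of Mdm4, which had 2852 to 3149 reads in NPS-EMSC and 3716 to 4232 in EMSC, and whether the counting used strand is not given in the sources used here. Mdm4 reads were thus lower in NPS-EMSC, and their part in the Pik3c2b count was not tested. The ratio of Pik3c2a to Pik3c2b was 58.4 ± 10.1 in NPS-EMSC and 150 ± 25.2 in EMSC.

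Neither class III gene passed the test. Pik3c3 had 3.74, 3.89 and 3.59 FPKM in NPS-EMSC, against 4.33, 4.06 and 4.39 FPKM in EMSC. These ranges did not overlap, but the gene did not pass (log2 fold change -0.14, unadjusted 95% interval -0.28 to -0.01, edgeR adjusted p = 0.0682). With upper-quartile factors it passed (edgeR adjusted p = 0.0267). Pik3r4 had 10.5, 11.5 and 10.6 FPKM in NPS-EMSC, against 11.1, 9.88 and 10.3 FPKM in EMSC, and the groups overlapped (log2 fold change 0.10, unadjusted 95% interval -0.02 to 0.23, edgeR adjusted p = 0.141). In GRCr8 the span of Pik3r4 overlaps that of the ribosomal protein gene Rpl29, with 15354 to 19220 reads a library. The part of Rpl29 reads in the Pik3r4 count was not tested.

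Although neither class III gene passed alone, the ratio of Pik3c3 to Pik3r4 did not overlap between the groups. It was 0.356, 0.339 and 0.339 in NPS-EMSC, against 0.392, 0.412 and 0.427 in EMSC (exact permutation p = 0.1). The sum of the pair was 14.6 ± 0.665 FPKM in NPS-EMSC and 14.7 ± 0.724 FPKM in EMSC (SD, n = 3 each), with overlap. As a share of all 10 genes, class III came to 15.7% ± 0.972 in NPS-EMSC and 14.3% ± 0.828 in EMSC, the 1 measure of the 16 whose groups overlapped (exact permutation p = 0.3).

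Across all 10 genes, class IA regulatory transcripts made up 41.2% ± 0.595 of the FPKM sum in NPS-EMSC and 51.0% ± 1.10 in EMSC. Class IA catalytic transcripts made up 22.8% ± 0.185 in NPS-EMSC and 18.5% ± 0.750 in EMSC, and class II 20.3% ± 1.62 in NPS-EMSC and 16.2% ± 0.887 in EMSC (SD, n = 3 each). The sum itself was 93.1 ± 1.62 FPKM in NPS-EMSC and 103 ± 2.67 FPKM in EMSC, without overlap. The regulatory sum was lower in NPS-EMSC by more than this gap, while the catalytic sum and the mean class II sum were higher there.

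The order of levels also differed between the groups. In NPS-EMSC it ran Pik3r2, Pik3c2a, Pik3ca, Pik3r1, Pik3r4, Pik3r3, Pik3cb, Pik3c3, Pik3cd and Pik3c2b, with overlapping library values between Pik3r2 and Pik3c2a, between Pik3ca and Pik3r1, and between neighbours from Pik3r3 to Pik3c3. In EMSC it ran Pik3r2, Pik3r1, Pik3c2a, Pik3ca, Pik3r4, Pik3r3, Pik3c3, Pik3cb, Pik3cd and Pik3c2b, with overlap only between Pik3r2 and Pik3r1 and between Pik3r3 and Pik3c3. Pik3r1 thus stood at rank 4 in NPS-EMSC and at rank 2 in EMSC by FPKM. These ranks depend on the fixed gene length behind each FPKM value, and read counts order the genes otherwise. In EMSC, for example, Pik3r1 had 8326, 9388 and 9175 reads and Pik3r2 had 3171, 3051 and 3073. Among all genes tested, the mean FPKM of Pik3r2 lay at percentile 79.1, that of Pik3r1 at 76.2, that of Pik3ca at 70.9 and that of Pik3c2b at 9.61.

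Of the class IB genes, which serve G protein-coupled receptors mainly in blood cells, Pik3cg and Pik3r6 were near the detection limit and Pik3r5 was low but passed the filter. Pik3cg, the p110γ gene, had 0, 0 and 0 reads in NPS-EMSC and 7, 4 and 2 reads in EMSC, and was not tested. Against a floor of 3 counts over the NPS-EMSC group it was 4.26-fold lower there. This value takes the 13 EMSC reads as counted, without their counting error, so it is not a lower bound. The regulatory gene Pik3r5 (p101) had 107, 65 and 86 reads in NPS-EMSC and 25, 5 and 7 in EMSC, and rose by 2.69 on the log2 scale (SE 0.44, edgeR adjusted p = 1.10e-05). Without EMSC replicate 1, which held most of the EMSC reads, the log2 fold change of Pik3r5 was 3.50. It was 2.36 without EMSC replicate 2 and 0.47 under limma on unfiltered log2(FPKM + 1) values, so its size of change is uncertain. Pik3r6 had 0, 1 and 0 reads in NPS-EMSC and 0, 0 and 0 in EMSC.

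Pik3ip1 was lower in NPS-EMSC. It encodes a membrane protein that binds and inhibits p110. Pik3ip1 had 208, 283 and 211 reads in NPS-EMSC, against 1198, 1061 and 1210 reads in EMSC, a 4.68-fold decrease without overlap (log2 fold change -2.23, SE 0.11, edgeR adjusted p = 1.10e-14). Pik3ap1, an adaptor of B cell signalling, had 98, 141 and 97 reads in NPS-EMSC and 41, 32 and 34 in EMSC (log2 fold change 1.66, SE 0.29, edgeR adjusted p = 2.46e-05). The class II gene Pik3c2g, known from liver, had 56, 106 and 52 reads in NPS-EMSC and 23, 22 and 49 in EMSC. It rose 2.30-fold (edgeR adjusted p = 0.00923), but the call was lost without NPS-EMSC replicate 2, where the log2 fold change was 0.81 (adjusted p = 0.117).

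**Figure D5:**
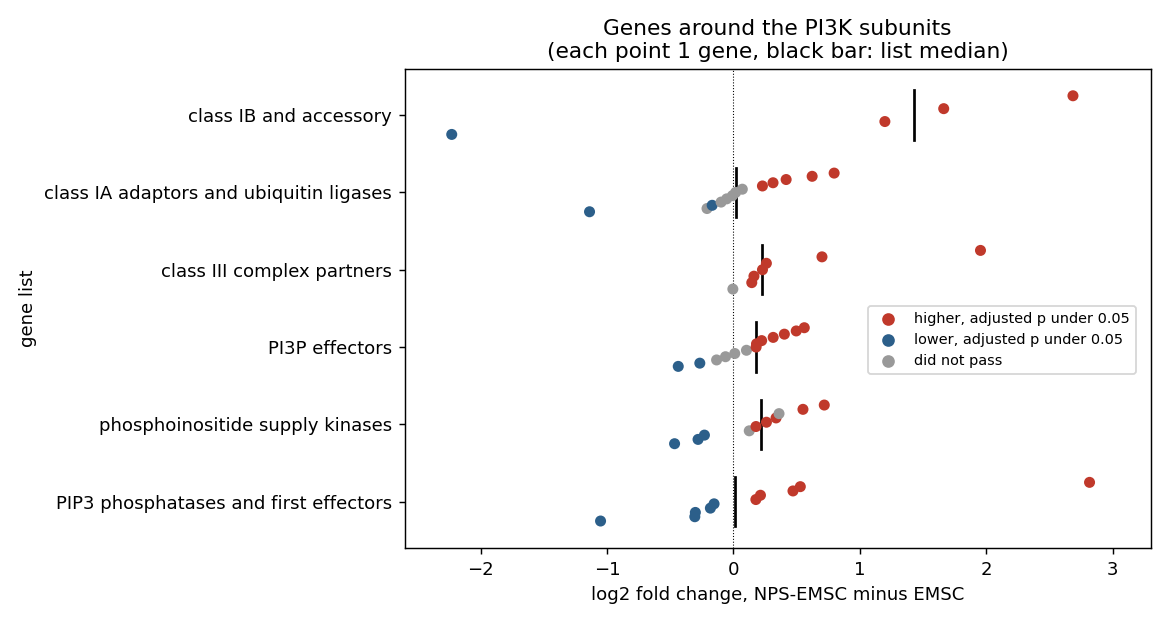
Log2 fold change, NPS-EMSC minus EMSC, of each tested gene in 6 lists around the PI3K subunits, coloured by call, with a black bar at the list median. Pik3ip1 lies at -2.23 in the top row, and in the list of class III complex partners 6 of 7 genes were called higher.

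Genes around the subunits were counted in 6 lists. They held 61 genes, of which 57 were tested, and 31 rose, 13 fell and 13 did not pass, with a median log2 fold change of 0.18. Over all genes tested, 59.3% were called, 29.7% higher and 29.5% lower, and these shares are the background of every list count that follows. Under limma on filtered log2(FPKM + 1) and on filtered log2(FPKM + 0.1) values, 18 rose in each case.

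Adaptors and ubiquitin ligases that couple receptors to class IA showed 5 genes higher, 2 lower and 6 that did not pass, of 13 tested (median 0.02). Cblb, a ubiquitin ligase that targets p85, had 14.4, 12.9 and 14.9 FPKM in NPS-EMSC, against 9.47, 9.09 and 9.71 FPKM in EMSC (log2 fold change 0.62, SE 0.06, edgeR adjusted p = 7.76e-10). The insulin receptor substrate gene Irs2 rose by 0.42 on the log2 scale and the docking protein gene Gab2 by 0.80. Irs3, another insulin receptor substrate of rodents, was lower (log2 fold change -1.14, SE 0.17).

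The partners of the class III pair rose in 6 of 7 tested genes, and none fell (0 lower), with a median of 0.23. Nrbf2, a subunit of the autophagy-specific complex, had 9.63, 9.20 and 9.24 FPKM in NPS-EMSC, against 6.18, 5.68 and 5.92 FPKM in EMSC (log2 fold change 0.70, SE 0.10, edgeR adjusted p = 2.33e-06). Becn1, the Beclin 1 scaffold, rose by 0.16 and Uvrag, the subunit of the endosomal complex, by 0.23. Under limma on the filtered log2(FPKM + 1) values, Becn1 (adjusted p = 0.0776) and Uvrag (adjusted p = 0.0839) did not pass. Rubcnl, an autophagy regulator at 0.176 to 0.330 FPKM in NPS-EMSC and 0.00487 to 0.107 FPKM in EMSC, rose by 1.96. Rubcnl had 66, 35 and 41 reads in NPS-EMSC and 22, 1 and 11 in EMSC, so its size of change is uncertain. Its log2 fold change was 2.67 without EMSC replicate 1, 1.48 without EMSC replicate 2 and 1.65 without NPS-EMSC replicate 1. It was 2.72 under limma-voom and 0.227 under limma on unfiltered log2(FPKM + 1) values. The filter of 1 CPM in 3 libraries left Rubcnl untested. The share of higher calls over all genes tested was 29.7%.

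Among 13 tested effectors of PI3P, 7 rose and 2 fell (median 0.18), beside 29.7% higher and 29.5% lower over all genes tested. Vac14, the scaffold of the PIKfyve complex, rose by 0.56 on the log2 scale (SE 0.08), while Fig4, the phosphatase of the same complex, fell, with a log2 fold change of -0.44 (SE 0.07). The PI3P-binding autophagy genes Wipi2 and Wdr45b rose by 0.50 and 0.40. Kinases that supply the substrates of PI3K showed 5 genes higher and 3 lower of 10 tested (median 0.22). Pip4k2a rose by 0.72, and Pi4ka, the plasma membrane PI4-kinase, by 0.34. Pip5k1c and Pip4k2b fell, at -0.46 and -0.28 on the log2 scale.

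Genes that act on PIP3 after the kinase split evenly, with 5 higher and 5 lower of 10 (median 0.01). Inppl1, the SHIP2 phosphatase that removes the 5-phosphate of PIP3, had 23.2, 20.4 and 24.4 FPKM in NPS-EMSC, against 16.5, 15.9 and 16.1 FPKM in EMSC (log2 fold change 0.53, SE 0.06, edgeR adjusted p = 2.36e-08). Inpp5d, the related SHIP1 gene of blood cells, rose by 2.82 at 0.503 to 0.766 FPKM in NPS-EMSC and 0.0620 to 0.0908 FPKM in EMSC. On the filtered log2(FPKM + 0.1) scale its difference was 1.95. Inpp4b, a 4-phosphatase gene, was lower (log2 fold change -1.05).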

How the data were processed

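Total RNA of 6 rat cell libraries was sequenced from VAHTS Universal V6 libraries, per the labels' protocols. Tools listed in the submitters' processing notes, without role or order, are HISAT2, HTSeq, fastp, DESeq, StringTie and R 3.2.0. For build, annotation and strand setting, nothing is given in the sources used here. The authors deposited whole-number read counts per gene. The authors also deposited FPKM values, which equal the counts divided by 1 fixed length per gene and the column total, within 0.1% for all 20653 genes. Overlaps with other genes were looked up in GRCr8. Besides Pik3c2b and Pik3r4, the span of Pik3cd overlaps that of LOC120103039 by 19355 bases, with 0 or 1 reads a library. Spans of Pik3r2 and Pik3r3 overlap those of the noncoding RNA genes LOC134482470 (3015 bases) and LOC120103122 (1010 bases). Neither noncoding gene is among the 20653, and their part in these counts was not tested.

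Counts were tested with edgeR 4.0.16 in R 4.3.3 (TMM, filterByExpr with minimum count 10 and minimum total 15, glmQLFit robust, glmQLFTest), over 14505 genes. A prior count of 2 was used for log2 fold changes (NPS-EMSC minus EMSC). Their SE was derived as the absolute change over the square root of F. Shares and ratios used FPKM and two-sided exact permutation tests. The edgeR fit was also run on simulated counts, in which far fewer genes changed than were called in these data. Its outcome there is not reported here and backs no result. Alternatives were upper-quartile or RLE factors, limma 3.58.1, DESeq2 1.42.0, other filters and pseudocounts, a replicate block and leaving out each library.

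Members and lists were chosen with earlier results of these data known. All members are named, of each other list up to 4 called genes by smallest p, and all class IB and accessory genes. Irs4 and Gab3 were not analysed here. Some of the genes chosen by this rule are counted but not reported by name.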

Additional observations from a re-analysis of the deposited data

How the results depend on the processing

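Pik3cb, Pik3cd, Pik3r1 and Pik3r2 kept their direction and passed under all 17 alternatives, and Pik3c2b under the 15 that tested it. Pik3c2a, at 0.21, passed in 9 of 17 (log2 fold change 0.16 to 0.30). Pik3c3 passed in 5 of 17, among them upper-quartile factors (-0.18, adjusted p = 0.0267) and the filter of 1 CPM in 3 libraries (-0.15, adjusted p = 0.0475), and Pik3r3 in 2 of 17. Pik3ca and Pik3r4 passed in none (0 of 17), and Pik3ca turned to -0.0055, -0.0058 and -0.0055 under limma on filtered log2(FPKM + 1), filtered log2(FPKM + 0.1) and unfiltered log2(FPKM + 1) values. The number of subunit genes called higher, 4, was 2 under both filtered FPKM settings, which leave Pik3c2b untested, and 3 to 4 without 1 library. The number called lower, 2, was 4 with upper-quartile factors and 2 to 3 without 1 library. Of the genes in the 6 lists, 31 higher became 18 under filtered log2(FPKM + 1) and 18 under filtered log2(FPKM + 0.1), where the cause was not tested. The 16 balance measures kept their sign in all 144 recomputed values. Read counts not divided by length gave a regulatory to catalytic difference of -1.02. Deviations of same-numbered libraries of the groups had correlations of -0.0526, 0.0675 and 0.0464, and those of other pairings ran from -0.127 to 0.0874. With 3 libraries a group, this cannot settle whether the numbers pair them. With the replicate number as a block, 4 subunit genes were higher and 2 lower, 31 and 14 genes of the lists, and 4331 and 4257 of all genes. The exact sign-flip permutation test of the balance with that block cannot go below p = 0.25. At 34 to 54 reads in an EMSC library, depth limits Pik3c2b most.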
